A study of Mus musculus with 21 samples.

Results

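The transcription factors that switch on and maintain the fat cell programme were followed through treatment of mouse adipocytes with a glucocorticoid or with an inflammatory cytokine. The 6 genes are Pparg, the nuclear receptor PPARγ, and 5 members of the C/EBP family, Cebpa, Cebpb, Cebpd, Cebpg and Ddit3. They were chosen by gene symbol in the platform annotation, which gave 6 of 18194 measured genes and 11 of 45101 probe sets, and each gene is represented by the probe set with the highest mean over all 21 arrays. All 6 genes passed the filter on dim signals, with their probe sets above 5.34 on the log2 scale, the median of all values, on all 21 arrays.

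The cells were 3T3-L1, a mouse line whose preadipocytes become fat cells in culture, differentiated for 14 days in every group. Expression was measured on 21 Affymetrix arrays, 3 biological replicates in each of 7 groups. The control group was untreated, at 0 h. Dexamethasone (Dex, a synthetic glucocorticoid) was given at 20 nM for 2 h, 24 h or 6 d. The cytokine TNF (tumour necrosis factor alpha) was given for the same times, with treatment begun at those intervals ahead of the RNA harvest. Per the labels, the study compared the early, middle and late response to each agent as insulin resistance develops. The labels give no TNF dose, no vehicle and no control other than that at 0 h. Nothing in the labels says that the replicates came from separate cultures, so p-values measure the spread between these samples. 3T3-L1 is an established line, and cultures can hold cells that did not differentiate. In RNA from whole cultures, fewer cells of a type and less RNA per cell cannot be told apart.

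In adipogenesis, C/EBPβ and C/EBPδ are induced first by the differentiation cocktail, which includes a glucocorticoid, and they turn on Pparg and Cebpa. PPARγ and C/EBPα then sustain each other and bind near most genes of the mature adipocyte, among them those for lipid storage and insulin-stimulated glucose uptake. C/EBPγ and CHOP, the protein of Ddit3, pair with the other C/EBP proteins. CHOP lacks a normal DNA-binding region, hinders its partners on their usual sites and is induced by endoplasmic reticulum and amino acid stress. TNF is known to lower PPARγ and C/EBPα in fat cells, and glucocorticoids are known to induce Cebpd.

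Promoter sequence was at hand for 5 of the 6 genes, as the 250 bases upstream of each transcription start in RefSeq for GRCm38.p6, and Cebpd is named only. Pparg has 3 starts listed there, and the other 4 genes 1 each. The windows of 3 genes are shown 5′ to 3′ on the strand of the gene, since they carry the motif matches or belong to the receptor itself. Capitals mark matches, on either strand, to TTGCG in Cebpa, an arm of the C/EBP site, and to TGACG in Cebpb, an arm of the cAMP response element that CREB and ATF proteins bind. The Cebpa window is chr7:35119043-35119292, the Cebpb window chr2:167688665-167688914, and the Pparg window, before start 3 of those listed, chr6:115421816-115422065, all on the plus strand.
Cebpa: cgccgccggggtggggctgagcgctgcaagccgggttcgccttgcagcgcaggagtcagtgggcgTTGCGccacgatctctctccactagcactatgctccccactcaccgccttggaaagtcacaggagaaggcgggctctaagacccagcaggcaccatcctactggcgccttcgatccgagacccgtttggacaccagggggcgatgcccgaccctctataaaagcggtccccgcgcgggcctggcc
Cebpb: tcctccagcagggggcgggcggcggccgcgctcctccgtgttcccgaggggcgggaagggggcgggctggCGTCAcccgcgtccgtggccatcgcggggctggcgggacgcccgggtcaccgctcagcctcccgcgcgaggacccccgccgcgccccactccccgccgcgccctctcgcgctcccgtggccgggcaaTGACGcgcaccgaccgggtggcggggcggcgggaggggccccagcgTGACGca
Pparg, start 3: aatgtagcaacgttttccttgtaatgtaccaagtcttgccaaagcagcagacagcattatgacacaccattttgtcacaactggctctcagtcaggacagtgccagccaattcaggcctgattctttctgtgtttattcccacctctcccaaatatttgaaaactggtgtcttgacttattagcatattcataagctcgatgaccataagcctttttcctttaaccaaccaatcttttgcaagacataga

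The Cebpa match lay at -185 to -181 from the start, where TTGCG was found on the plus strand. C/EBP proteins are known to act on the Cebpa promoter itself. The 3 matches in Cebpb lay at -180 to -176, read as CGTCA on the plus strand, at -53 to -49 and at -7 to -3. Of all 32851 promoter windows of this length, 14.5% held TTGCG and 17.8% held TGACG on either strand, so neither is rare. AGAACA, an arm of the glucocorticoid receptor site, was found in 16.1% of all windows and an NF-κB site, GGGAN followed at once by TTNCC, in 0.98%, and neither was found in a window of these 5 genes. No window of Pparg, Cebpg or Ddit3 matched any of the 4 motifs, and no matches shown overlap. A match is a description of the letters and not a sign that a factor binds there.

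A change below is the difference of 2 group means of log2 values ± its standard error (SE), from 3 arrays against 3. It comes from a limma model of all 21 arrays with the spread shared by the 7 groups. A gene is called higher or lower when its p, after Benjamini-Hochberg adjustment across the 12156 tested genes, was below 0.05 with all 21 arrays, and "rose" and "fell" are used only of such calls. All adjusted p-values are limma's, and a second adjusted p after the word "without" comes from the same model without TNF 6 d replicate 2. That array stood apart from the rest. Its correlation with an array of its own group was as low as 0.842, against at least 0.978 between arrays of every other group. The SD of its values was 2.04 against 2.44 to 2.51 for the other 20 arrays. Its probe sets showed a mean 3′ minus 5′ difference of 2.00 on the log2 scale against 0.0210 to 0.777 for those 20, a sign of RNA quality. It is the lowest of its group for all 6 genes, and it widened the shared spread, so the SE of Pparg was 0.35 with it and 0.11 without it. With arrays there is no depth of reads, and 3 replicates a group set the precision. Levels of different genes are not compared, since they come from different probes. Groups whose arrays do not overlap are common. Over all genes tested this held for 25.1%, 33.1% and 37.2% at the 3 times of Dex against control. At those of TNF it held for 22.9%, 35.8% and 31%. Between the agents the shares were 30.7%, 46.3% and 34.5%, and between times of 1 agent 22.5% to 43.2%.

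Adipocyte markers were clearly present. All 6 of the 8 listed that were measured, among them Adipoq, Fabp4 and Lpl, lay above 5.34 on every array. Their mean log2 level was 13.4 to 13.8 on control, Dex and TNF 2 h arrays, against 12.3 to 12.9 at TNF 24 h and 12.5 to 13.0 at TNF 6 d. Of 10 macrophage and leukocyte markers, 4 to 6 lay above 5.34, with a mean of 5.78 to 6.01 at TNF 24 h and 5.11 to 5.56 on the other arrays. Cd14, Cd68 and Mpeg1 were called higher at TNF 24 h, while the means of the defining leukocyte marker Ptprc and of the macrophage markers Adgre1 and Itgam were below 5.34 in every group. Of 9 measured preadipocyte and fibroblast markers, 7 were above 5.34 on every array, with a mean of 8.82 to 9.02 in controls, 8.72 to 8.88, 8.45 to 8.54 and 7.99 to 8.22 at the 3 times of Dex, and 8.82 to 9.36 under TNF. Of 7 of these markers tested, 4 were called lower at 6 d of Dex (Pdgfrb, Thy1, Col1a1 and Col3a1, with a median of -1.20 over the 7), and Pdgfra and Pdgfrb were called higher at 24 h and 6 d of TNF. The median over the 7 was -0.08 at 24 h and 0.26 at 6 d of TNF. Without TNF 6 d replicate 2, 1 of them was called lower at 24 h of TNF. Over all genes tested, 5.08% were called lower at 6 d of Dex. The shares called higher were 5.41% at 24 h and 4.52% at 6 d of TNF. The part of these marker levels in the results was not tested.

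**Figure D1:**
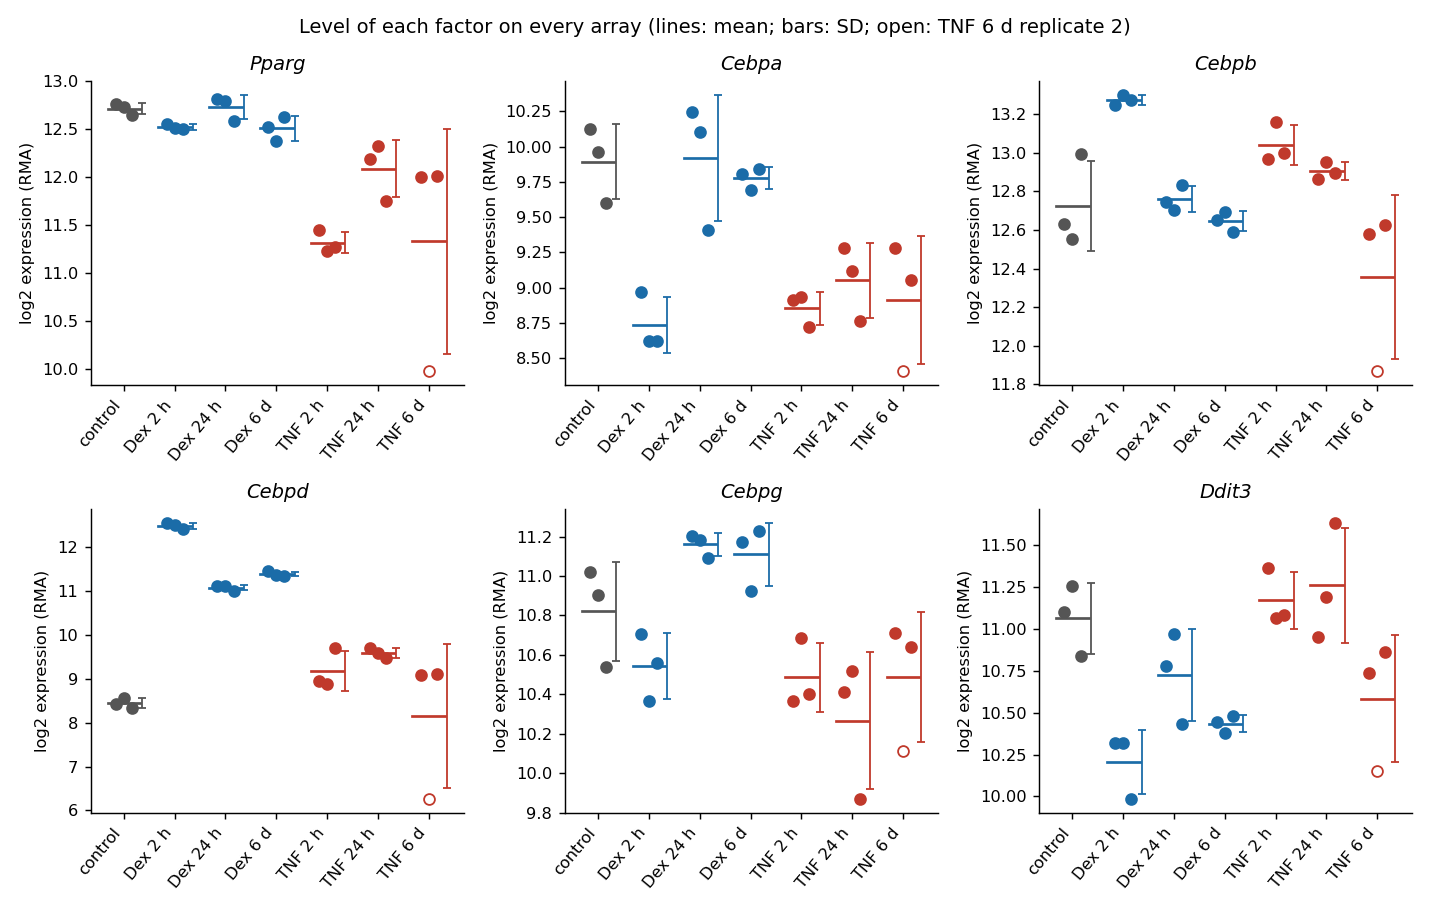
Log2 level of each of the 6 genes (y axis) on all 21 arrays, by group (x axis: control, Dex and TNF at 2 h, 24 h and 6 d). Points are arrays, horizontal lines group means and vertical bars the SD (n = 3), and the open circle is TNF 6 d replicate 2. Cebpd is highest on the Dex arrays, Pparg lowest on the TNF arrays, and the marked array lies lowest of its group in each panel.

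Pparg was high in control cells and stayed high under Dex, but fell within 2 h of TNF. Its control arrays read 12.76, 12.73 and 12.65. At TNF 2 h the arrays read 11.45, 11.23 and 11.28, all more than 1 below every control array. Pparg thereby fell by 1.40 ± 0.35 at 2 h of TNF, to 0.379 of the control level (adjusted p = 0.0254, without 1.28e-08). At TNF 24 h the arrays read 12.19, 12.32 and 11.75, between the TNF 2 h and control arrays and overlapping neither group. The change from control was -0.63 ± 0.35 there and was called only without the outlying array (adjusted p = 0.373, without 0.000278). At TNF 6 d the arrays read 12.00, 9.97 and 12.02, so 1 array lay about 2 below its group. Pparg fell by 1.38 ± 0.35 with all arrays (adjusted p = 0.0126). Without TNF 6 d replicate 2 the change was -0.71 ± 0.13 (adjusted p = 0.000381), still lower than control. The size at 6 d thus rests in part on that array, and the direction does not. The call at TNF 2 h was lost when any of the 6 arrays compared was left out, with adjusted p of 0.0636 (TNF 2 h replicate 1) to 0.0935 (TNF 2 h replicate 3).

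The return of Pparg between 2 h and 24 h of TNF was measured as a difference of 0.77 ± 0.35, with no overlap of the arrays, and was called only without the outlying array (adjusted p = 0.279, without 4.29e-05). Between 24 h and 6 d of TNF the difference was -0.76 with all arrays and -0.08 without (adjusted p = 0.165, without 0.79). Between 2 h and 6 d it was 0.01 with all arrays (adjusted p = 0.983), and 0.69 without the outlying array (adjusted p = 0.000415).

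Under Dex the level of Pparg differed little from control. The Dex arrays read 12.56, 12.51 and 12.50 at 2 h, 12.82, 12.80 and 12.59 at 24 h, and 12.53, 12.37 and 12.63 at 6 d. The 2 h and 6 d arrays lay just below all controls, with changes of -0.19 ± 0.35 and -0.21 ± 0.35, and the 24 h arrays overlapped them at 0.02 ± 0.35. None was called (adjusted p from 0.902 to 1, without from 0.215 to 0.955). The 95% interval of the 6 d change ran from -0.94 to 0.53, so a modest change either way could not be detected.

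Cebpa, the factor that partners PPARγ in the mature fat cell, fell early under both agents, and by 24 h its level under Dex overlapped the control. Control arrays read 10.12, 9.96 and 9.60. At Dex 2 h the values were 8.97, 8.62 and 8.62, and at TNF 2 h they were 8.91, 8.93 and 8.72. All 6 treated arrays thus lay below all 3 controls. Cebpa fell by 1.16 ± 0.24 at 2 h of Dex, to 0.448 of control (adjusted p = 0.00921, without 0.000205). It fell by 1.04 ± 0.24 at 2 h of TNF, to 0.486 of control (adjusted p = 0.0152, without 0.000461). These comparisons share the control arrays. The 2 agents at 2 h differed by -0.12, with a 95% interval from -0.63 to 0.39 (adjusted p = 0.999), so a difference of up to that size is not excluded. The Dex call was lost without control replicate 1 (adjusted p = 0.0725), control replicate 2 (0.0506), Dex 2 h replicate 2 (0.0545) or Dex 2 h replicate 3 (0.0562). The TNF 2 h call was lost without control replicate 1 (0.0966), control replicate 2 (0.0721) or TNF 2 h replicate 3 (0.0819).

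Later the 2 agents parted. Dex arrays read 10.24, 10.11 and 9.41 at 24 h and 9.80, 9.69 and 9.84 at 6 d. The 24 h arrays reached above and below the controls, and the 6 d arrays lay within them. The changes were 0.03 ± 0.24 and -0.12 ± 0.24, with adjusted p of 1 and 0.929. Between 2 h and 24 h of Dex, Cebpa rose by 1.19 ± 0.24 (adjusted p = 0.00698, without 0.000131). Between 2 h and 6 d of Dex it rose by 1.04 ± 0.24 (adjusted p = 0.0098, without 0.000282). The first of these was lost without Dex 24 h replicate 1 (adjusted p = 0.0594) and the second without Dex 2 h replicate 2 (0.051).

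Under TNF, Cebpa was low at all 3 times. The arrays read 9.28, 9.12 and 8.76 at 24 h and 9.28, 8.41 and 9.06 at 6 d, overlapping those at 2 h and all below the controls. It fell by 0.84 ± 0.24 at 24 h (adjusted p = 0.0347, without 0.00193). It fell by 0.98 ± 0.24 at 6 d (adjusted p = 0.0115), or by 0.73 without the outlying array (adjusted p = 0.0163). Set against TNF, Cebpa was higher under Dex by 0.87 ± 0.24 at 24 h (adjusted p = 0.0202, without 0.00103) and by 0.86 ± 0.24 at 6 d (adjusted p = 0.0161). Without the outlying array the latter was 0.61 (adjusted p = 0.0317). With cyclic loess between arrays both 6 d calls were lost, at -0.58 against control (adjusted p = 0.0639) and 0.44 between the agents (adjusted p = 0.127). In the order of the 7 group means, the 2 h Dex group and the 3 TNF groups overlapped their neighbours, a gap of 0.73 followed, and Dex 6 d, control and Dex 24 h overlapped above it. The call at TNF 24 h was lost without control replicate 1 (adjusted p = 0.16), control replicate 2 (0.115), TNF 24 h replicate 2 (0.0687) or TNF 24 h replicate 3 (0.171), and that at TNF 6 d without control replicate 1 (0.0584). The difference between the agents was lost at 24 h without Dex 24 h replicate 1 (0.124), Dex 24 h replicate 2 (0.0977) or TNF 24 h replicate 3 (0.106), and at 6 d without Dex 6 d replicate 3 (0.0535).

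Cebpd, the early C/EBP factor, had the largest change of the 6 genes in each comparison of Dex with control. Control arrays read 8.44, 8.56 and 8.33. At Dex 2 h they read 12.56, 12.51 and 12.42, the highest of any group. Cebpd rose by 4.05 ± 0.48 at 2 h, which is 16.6-fold (adjusted p = 2.39e-05, without 1.54e-13). At 24 h the arrays read 11.13, 11.11 and 11.01, and at 6 d 11.45, 11.37 and 11.35. The 3 Dex groups overlapped neither each other nor any other group. Cebpd rose by 2.64 ± 0.48 at 24 h, or 6.24-fold (adjusted p = 0.00216, without 1.08e-10), and by 2.95 ± 0.48 at 6 d, or 7.72-fold (adjusted p = 0.000409, without 1.17e-11). These 3 calls were kept in every setting run, each array left out in turn included.

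The level of Cebpd was highest at 2 h and lower afterwards. The 24 h group differed from the 2 h group by -1.41 ± 0.48 (adjusted p = 0.149, without 1.48e-06), and the 6 d group by -1.11 ± 0.48 (adjusted p = 0.22, without 1.34e-05), so both were called only without the outlying array. Between 24 h and 6 d of Dex the difference was 0.31 ± 0.48, called in neither fit (adjusted p = 1, without 0.328).

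Under TNF, Cebpd lay above the controls on all arrays but 1. The arrays read 8.96, 8.87 and 9.71 at 2 h and 9.71, 9.60 and 9.46 at 24 h, with no overlap with the controls. At 6 d they read 9.08, 6.26 and 9.11, where the outlying array alone was below the controls. The changes were 0.74 ± 0.48 at 2 h (adjusted p = 0.81, without 0.00173) and 1.15 ± 0.48 at 24 h (adjusted p = 0.184, without 6.69e-06), both called only without that array. At 6 d the sign turned with it. The change was -0.29 ± 0.48 with all arrays (adjusted p = 0.668) and 0.65 ± 0.17 without TNF 6 d replicate 2 (adjusted p = 0.00815). Cebpd was higher under Dex than under TNF by 3.32 ± 0.48 at 2 h (adjusted p = 0.000101) and by 1.49 ± 0.48 at 24 h (adjusted p = 0.0464). At 6 d the difference was 3.24 ± 0.48 (adjusted p = 9.97e-05) or 2.30 without the outlying array (adjusted p = 1.83e-09). The difference at 24 h was lost with no filter (adjusted p = 0.0626) and in 17 of the 21 fits that left out 1 array, with adjusted p from 0.0544 to 0.135, while without TNF 6 d replicate 2 it was 1.32e-07.

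**Figure D2:**
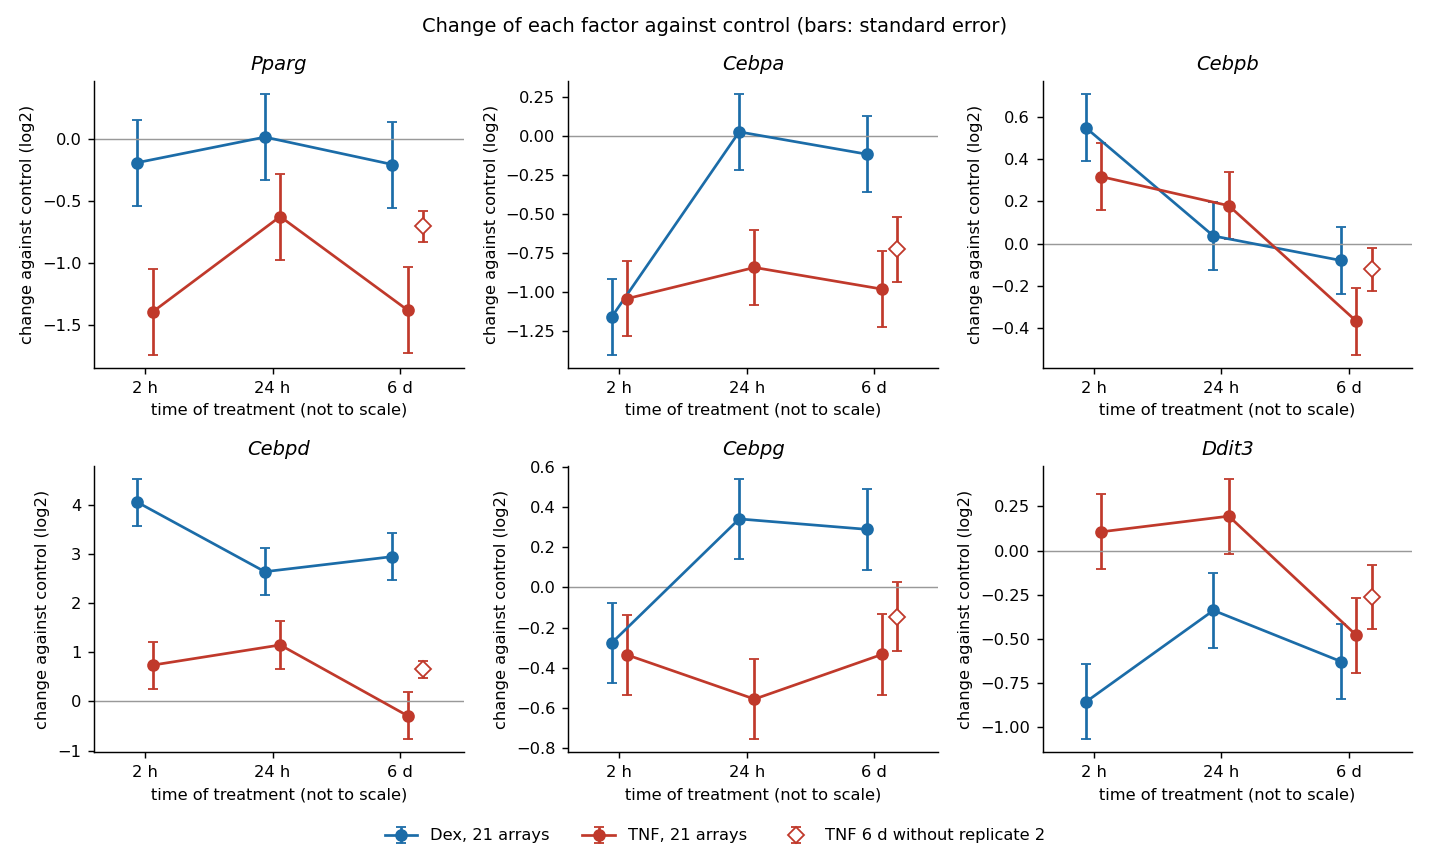
Change of each of the 6 genes from control (y axis, log2 difference with SE bars) at 2 h, 24 h and 6 d (x axis, not to scale) of Dex (blue) or TNF (red) with all 21 arrays, and at 6 d of TNF without its replicate 2 (open diamonds). Cebpd under Dex reaches 4.05, 2.64 and 2.95, Cebpa is at -1.16 and -1.04 at 2 h of Dex and TNF, and Pparg is at -1.40 at 2 h of TNF.

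Cebpb, which acts with Cebpd early in adipogenesis and at acute phase genes, moved less. Control arrays read 12.63, 12.55 and 12.99. At Dex 2 h they read 13.25, 13.30 and 13.27, above all controls. The change was 0.55 ± 0.16 and was called only without the outlying array (adjusted p = 0.0965, without 0.00026). At TNF 2 h the arrays read 12.97, 13.16 and 13.00, overlapping the highest control, with a change of 0.32 ± 0.16 (adjusted p = 0.557, without 0.0247). The 2 agents at 2 h differed by 0.23 with a 95% interval from -0.10 to 0.57, which was called in neither fit (adjusted p = 0.767, without 0.0987). At 24 h Cebpb read 12.75, 12.70 and 12.83 under Dex and 12.86, 12.95 and 12.90 under TNF. At 6 d it read 12.65, 12.69 and 12.59 under Dex and 12.58, 11.87 and 12.63 under TNF. Each of these 4 groups overlapped the controls and none was called (changes from -0.37 to 0.18).

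Between times, Cebpb fell by 0.63 ± 0.16 from 2 h to 6 d of Dex (adjusted p = 0.0189, without 2.41e-05). It fell by 0.68 ± 0.16 from 2 h to 6 d of TNF (adjusted p = 0.00775), or by 0.44 without the outlying array (adjusted p = 0.00304), and with cyclic loess it was -0.32, not called (adjusted p = 0.0596). From 2 h to 24 h of Dex the difference was -0.51 ± 0.16, called only without that array (adjusted p = 0.099, without 0.000401). The fall under Dex was lost without Dex 2 h replicate 1 (adjusted p = 0.0594), replicate 2 (0.0702) or replicate 3 (0.061), or without Dex 6 d replicate 1 (0.0599) or replicate 3 (0.0718), and with the mean of both probe sets (0.0629).

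Cebpg, the partner of other C/EBP and ATF proteins with no activating region of its own, was called against control at no time with all 21 arrays. Control arrays read 11.02, 10.90 and 10.54. Under Dex they read 10.70, 10.37 and 10.56 at 2 h, 11.20, 11.18 and 11.09 at 24 h, and 11.17, 10.93 and 11.23 at 6 d. Under TNF they read 10.37, 10.69 and 10.40 at 2 h, 10.41, 10.52 and 9.87 at 24 h, and 10.71, 10.11 and 10.64 at 6 d. Of these, the Dex 24 h arrays lay above all controls and the TNF 24 h arrays below them. The changes at 24 h were 0.34 ± 0.20 under Dex (adjusted p = 0.644, without 0.18) and -0.56 ± 0.20 under TNF, the latter called only without the outlying array (adjusted p = 0.108, without 0.0108). The agents themselves differed. Cebpg was higher under Dex than under TNF by 0.90 ± 0.20 at 24 h (adjusted p = 0.00428, without 0.000113). At 6 d it was higher by 0.62 ± 0.20 (adjusted p = 0.0323), which was no longer called without TNF 6 d replicate 2, at 0.43 (adjusted p = 0.0643), nor without Dex 6 d replicate 1 (0.0925) or replicate 3 (0.106), nor with cyclic loess, at 0.21 (adjusted p = 0.424).

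Ddit3, whose protein CHOP hinders other C/EBP factors, fell under Dex at 2 h and was called under TNF at no time. Control arrays read 11.10, 11.26 and 10.84. At Dex 2 h they read 10.32, 10.32 and 9.98, all below the controls. Ddit3 fell by 0.86 ± 0.21, to 0.551 of control (adjusted p = 0.0348, without 0.00119). At Dex 24 h the arrays read 10.78, 10.97 and 10.43, overlapping the controls at -0.34 ± 0.21 (adjusted p = 0.707, without 0.208). At Dex 6 d they read 10.44, 10.38 and 10.48, again below all controls, with a change of -0.63 ± 0.21 called only without the outlying array (adjusted p = 0.0843, without 0.0067). TNF arrays read 11.37, 11.06 and 11.08 at 2 h, 10.95, 11.19 and 11.64 at 24 h, and 10.74, 10.15 and 10.86 at 6 d, each group overlapping the controls. The changes were 0.11, 0.19 and -0.48, the last -0.26 without the outlying array (adjusted p = 0.118, without 0.345). At 2 h Ddit3 was lower under Dex than under TNF by 0.96 ± 0.21 on the log2 scale, at 10.2 against 11.2 (adjusted p = 0.00663, without 0.000156), and this call was kept when any 1 array was left out but not with the mean of both probe sets (adjusted p = 0.0596). At 24 h the difference was -0.53 ± 0.21 (adjusted p = 0.119, without 0.0143), and at 6 d -0.15 ± 0.21 (adjusted p = 0.61, without 0.143).

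The fall of Ddit3 at 2 h of Dex depended on single arrays and on other settings. The adjusted p was 0.139 when control replicate 1 was left out and 0.203 when control replicate 2 was. The call was also lost without Dex 2 h replicate 1 (0.0821), 2 (0.0802) or 3 (0.222), Dex 24 h replicate 1 (0.0521), Dex 6 d replicate 1 (0.052) or Dex 6 d replicate 3 (0.051). Its adjusted p was 0.0582 with the replicate number as a block, 0.0501 with no filter on dim genes and 0.177 with the mean of both probe sets.

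Counted over the 6 genes, 3 were called at 2 h of Dex (Cebpd higher, Cebpa and Ddit3 lower), 1 at 24 h and 1 at 6 d (Cebpd). Over all genes tested the shares called were 2.48%, 4.18% and 8.3%. Under TNF, 2 were called at 2 h (Pparg and Cebpa lower), 1 at 24 h (Cebpa) and 2 at 6 d (Pparg and Cebpa), against shares of 3.82%, 8.69% and 15.2% of all genes. Without TNF 6 d replicate 2 the counts were 4, 1 and 2 under Dex and 4, 4 and 3 under TNF, against 7.12%, 13.2% and 24% under Dex and 10.7%, 25.6% and 20.5% under TNF. The genes added without that array were Cebpb at Dex 2 h, Ddit3 at Dex 6 d, Cebpb and Cebpd at TNF 2 h, Pparg, Cebpd and Cebpg at TNF 24 h, and Cebpd at TNF 6 d. Other single arrays moved the counts too. At Dex 2 h, 1 gene was called (Cebpd) without control replicate 1 or 2 or Dex 2 h replicate 2 or 3. At TNF 2 h, 0 were called without control replicate 1 or 2 or TNF 2 h replicate 3, and 1 (Cebpa) without control replicate 3 or TNF 2 h replicate 1 or 2. At TNF 24 h, 0 were called without control replicate 1 or 2 or TNF 24 h replicate 2 or 3. At TNF 6 d, 1 was called (Pparg) without control replicate 1, and 4 (Pparg, Cebpa, Cebpb and Ddit3, all lower) without TNF 6 d replicate 3. In a model of only the 2 groups compared, none of the 6 genes was called at TNF 6 d against control with all arrays, and 3 without TNF 6 d replicate 2.

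Between the agents, 3 genes were called at 2 h (Pparg and Cebpd higher under Dex, Ddit3 lower), 3 at 24 h (Cebpa, Cebpd and Cebpg higher) and 4 at 6 d (Pparg, Cebpa, Cebpd and Cebpg higher). The shares of all genes were 5.97%, 13.5% and 23.7%. Pparg was higher under Dex than under TNF by 1.21 ± 0.35 at 2 h (adjusted p = 0.0465, without 6.78e-08) and by 1.18 ± 0.35 at 6 d (adjusted p = 0.0212), or by 0.50 at 6 d without the outlying array (adjusted p = 0.0047). At 24 h the difference of Pparg was 0.64 ± 0.35, called only without that array (adjusted p = 0.294, without 0.000148). The Pparg call at 2 h was lost in 18 of the 21 fits that left out 1 array, with adjusted p from 0.0522 to 0.144, and when the replicate number was taken as a block (0.0509), with no filter (0.0651) or with robust moderation (0.0501). That at 6 d was lost without Dex 6 d replicate 1 (0.0588) or 3 (0.0681). Without the outlying array, 3, 5 and 3 genes were called at the 3 times, against 14.8%, 33% and 30.1% of all genes. Leaving out Dex 24 h replicate 1 or 2 or TNF 24 h replicate 3 left 1 gene at 24 h, Cebpg. At 6 d, 2 genes were called without Dex 6 d replicate 1 and 1 without its replicate 3. A model of only the Dex 6 d and TNF 6 d arrays called 0, or 5 without TNF 6 d replicate 2.

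Between times, Cebpa was the 1 gene called from 2 h to 24 h of Dex, and Cebpa and Cebpb were the 2 called from 2 h to 6 d, against 3.62% and 7.45% of all genes. None was called from 24 h to 6 d of Dex in either fit, where 0.683% of all genes were called, or 4.5% without the outlying array. Under TNF, Cebpb was the 1 gene called from 2 h to 6 d, against 14.3% of all genes. None was called from 2 h to 24 h or from 24 h to 6 d with all arrays (5.69% and 5.99% of all genes). Without the outlying array the counts were 5, 0 and 4 for Dex (24 h against 2 h, 6 d against 24 h, and 6 d against 2 h) and 1, 0 and 2 for TNF, with 13.5% and 24.5% of all genes called in the comparisons of 24 h and 6 d with 2 h of Dex and 22.1%, 9.2% and 21.1% in those of TNF. Without Dex 24 h replicate 1 none was called from 2 h to 24 h of Dex. From 2 h to 6 d of Dex none was called without Dex 2 h replicate 2, and 1 (Cebpa) without Dex 2 h replicate 1 or 3 or Dex 6 d replicate 1 or 3. Without TNF 6 d replicate 1 or 3, which gives the outlying array more weight, 4 genes (Pparg, Cebpb, Cebpd and Ddit3) were called from 24 h to 6 d of TNF and 3 (Cebpb, Cebpd and Ddit3) from 2 h to 6 d. Without control replicate 3, Cebpb was called from 24 h to 6 d of TNF.

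Of the 6 genes, 4 have further probe sets, 5 in all, and these are shown beside those used. The second Cebpd probe set, 1456605_at, was dim, with a mean of 5.95 over all arrays and 19 of 21 arrays above 5.34. It rose by 1.11 ± 0.28 at 2 h of Dex (adjusted p = 0.0381), and its changes at 24 h and 6 d of Dex were 0.58 and 0.48, not called. Under TNF it stayed within 0.23 of control. It thus had the sign of the bright probe set under Dex with a smaller change. Its signal lay close to background, and the cause of the smaller change was not tested. With the mean of both probe sets as the value, Cebpd rose by 2.58, 1.61 and 1.71 at 2 h, 24 h and 6 d of Dex, still called at all 3 times. The second Cebpb probe set, 1427844_a_at, changed by 0.68 ± 0.42 at 2 h of Dex, which was not called (adjusted p = 0.935). Against control its sign differed from that of the probe set used only at 24 h of TNF (-0.38 ± 0.42 against 0.18 ± 0.16). Between the agents the signs differed only at 24 h (0.40 ± 0.42 against -0.14 ± 0.16). None of these changes was called.

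Cebpg has 3 probe sets, and all of them had a higher mean than control at 24 h and 6 d of Dex and a lower one at every time of TNF. At 24 h of TNF, 1425262_at and 1425261_at read -0.67 ± 0.21 and -0.60 ± 0.18 against -0.56 ± 0.20 for the probe set used (adjusted p = 0.0673, 0.0549 and 0.108). The first of them fell by 0.68 ± 0.21 at 6 d of TNF (adjusted p = 0.0454), which was lost without the outlying array (adjusted p = 0.0948). Between the agents at 6 d, 1425262_at was higher under Dex by 1.13 ± 0.21 (adjusted p = 0.00107, without 0.000697). For 1425261_at the difference was 0.76 ± 0.18 (adjusted p = 0.00707, without 0.00764). Both stayed called without the outlying array, unlike the probe set used. The second Ddit3 probe set, 1443897_at, read -0.94 ± 0.47 at 2 h of Dex (adjusted p = 0.688, without 0.0547), close to the -0.86 of the probe set used. Against control the signs of the 2 differed only at 24 h of TNF (-0.23 ± 0.47 against 0.19 ± 0.21). Between the agents they differed at 24 h (0.15 ± 0.47 against -0.53 ± 0.21) and 6 d (0.11 ± 0.47 against -0.15 ± 0.21). None of these was called with all arrays.

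**Figure D3:**
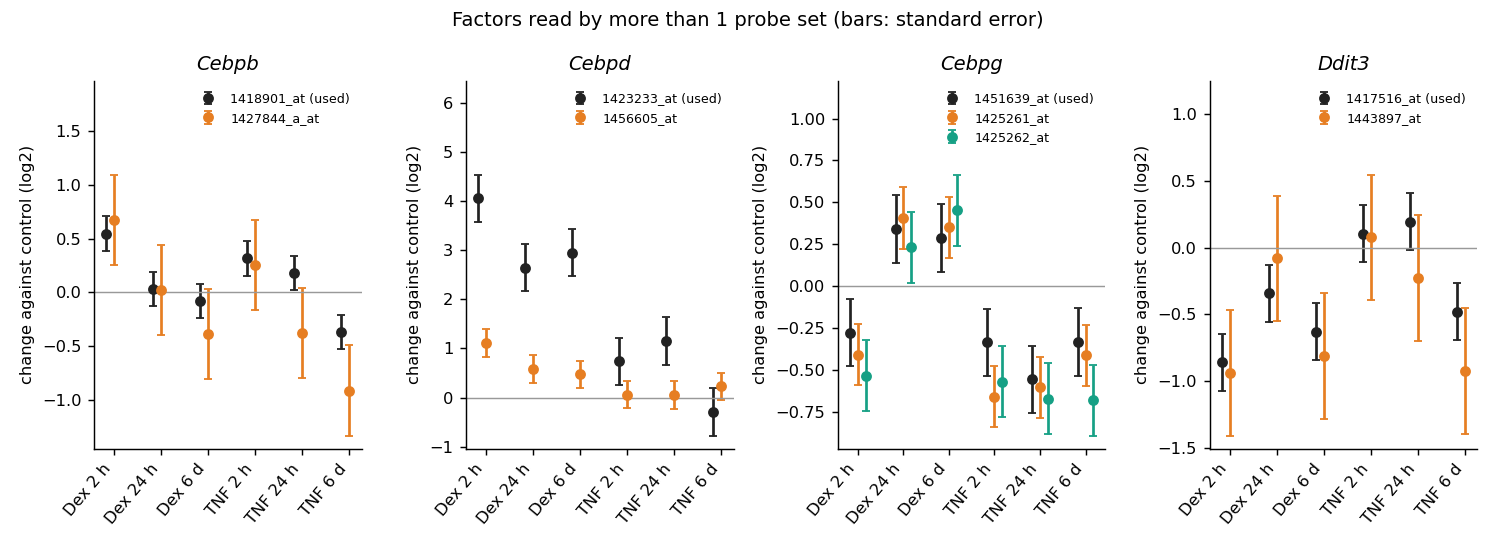
Change from control (y axis, log2 difference with SE bars) in the 6 treated groups for every probe set of the 4 genes that have more than 1. The dim second probe set of Cebpd rises by 1.11 at 2 h of Dex where the one used rises by 4.05, and the 3 Cebpg probe sets lie close together.

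The lists that follow were read against the shares of all genes called, which were 2.48%, 4.18% and 8.3% at the 3 times of Dex and 3.82%, 8.69% and 15.2% at those of TNF. In the fit that leaves out the outlying array they came to 7.12%, 13.2% and 24%, and 10.7%, 25.6% and 20.5%. The first list holds the proteins that PPARγ works with. Of 16 partners and coregulators tested, 1 was higher and 2 lower at 2 h of Dex, and 0 and 2 at 2 h of TNF. Their median changes were 0.07 and 0.00, against -0.02 and -0.05 over all genes tested. In the fit without the outlying array 2 were higher and 4 lower in both of these comparisons, and 3 and 3 at 24 h and 2 and 1 at 6 d of TNF. Ppargc1b, a coactivator of mitochondrial genes, fell by 1.23 ± 0.26 at 2 h of Dex (adjusted p = 0.0101) and fell by 1.98 ± 0.26 at 2 h of TNF (adjusted p = 4.73e-05). Nrip1, a corepressor of energy-spending genes, fell by 1.09 ± 0.28 at 2 h of Dex (adjusted p = 0.0443). Under TNF it fell by 1.91 ± 0.28 at 2 h (adjusted p = 0.000185) and fell by 1.10 ± 0.28 at 24 h (adjusted p = 0.0163). Rxra, the receptor that PPARγ binds DNA with, rose at all 3 times of Dex, by 0.58, 0.77 and 0.61 ± 0.13 (adjusted p = 0.0185, 0.00122 and 0.00502). At 24 h of TNF, Helz2, a coactivator of PPAR receptors, rose by 1.80 ± 0.35 (adjusted p = 0.00186) and Ppard, the related receptor PPARδ, rose by 0.93 ± 0.27 (adjusted p = 0.0372). At 6 d, the counts higher and lower were 2 and 0 under Dex, with Ppargc1b up by 0.87 ± 0.26 (adjusted p = 0.0425), and 0 and 1 under TNF, where Rxrg, a receptor of the same family, fell by 1.05 ± 0.26 (adjusted p = 0.0123). Without the outlying array the Rxrg change was -0.70 (adjusted p = 0.0248).

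Among PPARγ target genes of the adipocyte, more were called lower than higher at each time of both agents. Of 21 tested, 0 were higher and 3 lower at 2 h of Dex, 1 and 4 at 24 h, and 1 and 10 at 6 d. Under TNF, 1 was higher and 2 lower at 2 h, 1 and 11 at 24 h, and 0 and 12 at 6 d. The median change of the 21 was -0.15, -0.04 and -0.30 under Dex and -0.19, -0.62 and -0.82 under TNF, against -0.02, -0.003 and -0.02 under Dex and -0.05, -0.03 and -0.23 under TNF over all genes tested. With the outlying array left out, the counts were 0 and 6, 2 and 8, and 1 and 11 under Dex, and 3 and 5, 2 and 15, and 0 and 11 under TNF, with a median of -0.46 at 6 d of TNF. Of all genes tested, 5.08% were called lower at 6 d of Dex and 10.7% at 6 d of TNF.

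Mgll, the lipase of monoglycerides, fell under Dex by 1.32 ± 0.21 at 24 h (adjusted p = 0.000587) and fell by 2.23 ± 0.21 at 6 d (adjusted p = 7.52e-07). Under TNF it fell by 2.64 ± 0.21 at 24 h (adjusted p = 8e-08) and fell by 2.32 ± 0.21 at 6 d (adjusted p = 1.21e-06). Pck1, the enzyme that makes glycerol backbone for triglyceride, fell by 2.55 ± 0.38 at 6 d of Dex (adjusted p = 0.000182) and fell by 2.52 ± 0.38 at 6 d of TNF (adjusted p = 0.000334). Without the outlying array the Pck1 change at 6 d of TNF was -1.82 (adjusted p = 8.05e-07). Hcar1, the lactate receptor that restrains lipolysis, changed by -1.86, -1.90 and -1.90 ± 0.31 at the 3 times of Dex, called lower at each (adjusted p = 0.00116, 0.000793 and 0.000411). Plin2, a lipid droplet coat protein, fell by 0.71 ± 0.13 at 2 h of Dex (adjusted p = 0.0033), and Angptl4, an inhibitor of lipoprotein lipase, fell by 1.02 ± 0.25 (adjusted p = 0.0296). Pparg itself was called under Dex at none of these times.

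Some targets rose. Pnpla2, the first lipase of triglyceride breakdown, rose by 1.15 ± 0.12 at 24 h (adjusted p = 5.55e-06) and 1.19 ± 0.12 at 6 d of Dex (adjusted p = 1.98e-06). Olr1, a receptor for oxidised lipoprotein, rose by 2.41 ± 0.20 at 2 h and 2.39 ± 0.20 at 24 h of TNF (adjusted p = 1.89e-07 and 1.68e-07). Its control mean was 3.97, below 5.34, near background. Under TNF the lipid droplet protein Cidec fell by 1.97 ± 0.41 at 24 h (adjusted p = 0.00366), and the glycerol channel Aqp7 fell by 1.69 ± 0.30 (adjusted p = 0.000844). Lipe, the hormone-sensitive lipase, fell by 0.79 ± 0.17 at 2 h of TNF (adjusted p = 0.00833).

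Genes known as targets of C/EBP factors moved in both directions. Of 14 tested, 2 were higher and 1 lower at 2 h of Dex, 5 and 1 at 24 h, and 3 and 2 at 6 d. Under TNF, 5 were higher and 1 lower at 2 h, 6 and 5 at 24 h, and 3 and 7 at 6 d. The list mixes acute phase genes with fat cell genes, and its median change lay between -0.21 and 0.31 in the 6 comparisons. When the outlying array was left out, they were 6 and 1, 5 and 2, and 5 and 7 under Dex, and 6 and 2, 7 and 5, and 6 and 7 under TNF. Hp, the acute phase protein haptoglobin, rose under Dex by 2.51, 3.33 and 2.47 ± 0.15 at the 3 times (adjusted p = 9.33e-09, 1.47e-10 and 2.08e-09). Under TNF it rose by 3.91 ± 0.15 at 24 h (adjusted p = 2.99e-12) and 3.38 ± 0.15 at 6 d (adjusted p = 3.82e-11). Saa3, an acute phase apolipoprotein, rose under TNF by 7.69, 8.31 and 7.63 ± 0.28 (adjusted p = 1.91e-12, 6.87e-13 and 4.42e-12). Lcn2, the iron-binding lipocalin, rose by 5.92 ± 0.75 at 24 h of Dex (adjusted p = 5.37e-05) and 5.33 ± 0.75 at 24 h of TNF (adjusted p = 6.68e-05), from a control mean of 5.36 that lies at the threshold. Cp, ceruloplasmin, rose at 6 d by 1.83 ± 0.11 under Dex (adjusted p = 3.72e-09) and 1.89 ± 0.11 under TNF (adjusted p = 5.78e-09).

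The 7 genes called lower at 6 d of TNF were Slc2a4, Scd1, Retn, G0s2, Agt and the acute phase genes Orm1 and Orm2. Orm2 fell by 2.03 ± 0.65 there (adjusted p = 0.0439), or by 0.71 without the outlying array (adjusted p = 0.0106). Retn, the adipokine resistin, fell by 2.64 ± 0.18 at 24 h (adjusted p = 1.45e-08) and fell by 1.38 ± 0.18 at 6 d of TNF (adjusted p = 0.00011). Slc2a4, the insulin-stimulated glucose transporter GLUT4, fell by 1.14 ± 0.15 at 24 h of TNF (adjusted p = 4.27e-05) and fell by 0.76 ± 0.15 at 6 d of Dex (adjusted p = 0.00273). Agt, angiotensinogen, rose under Dex by 0.75, 1.93 and 1.58 ± 0.18 (adjusted p = 0.0229, 8.34e-07 and 5.83e-06) and fell by 2.21 ± 0.18 at 24 h of TNF (adjusted p = 8e-08). G0s2, an inhibitor of triglyceride lipolysis, fell by 3.02 ± 0.31 at 2 h of Dex (adjusted p = 5.06e-06) and fell by 2.68 ± 0.31 at 2 h of TNF (adjusted p = 1.32e-05). It also fell by 1.39 ± 0.31 at 24 h of Dex (adjusted p = 0.0129) and fell by 2.14 ± 0.31 at 6 d (adjusted p = 0.000139).

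**Figure D4:**
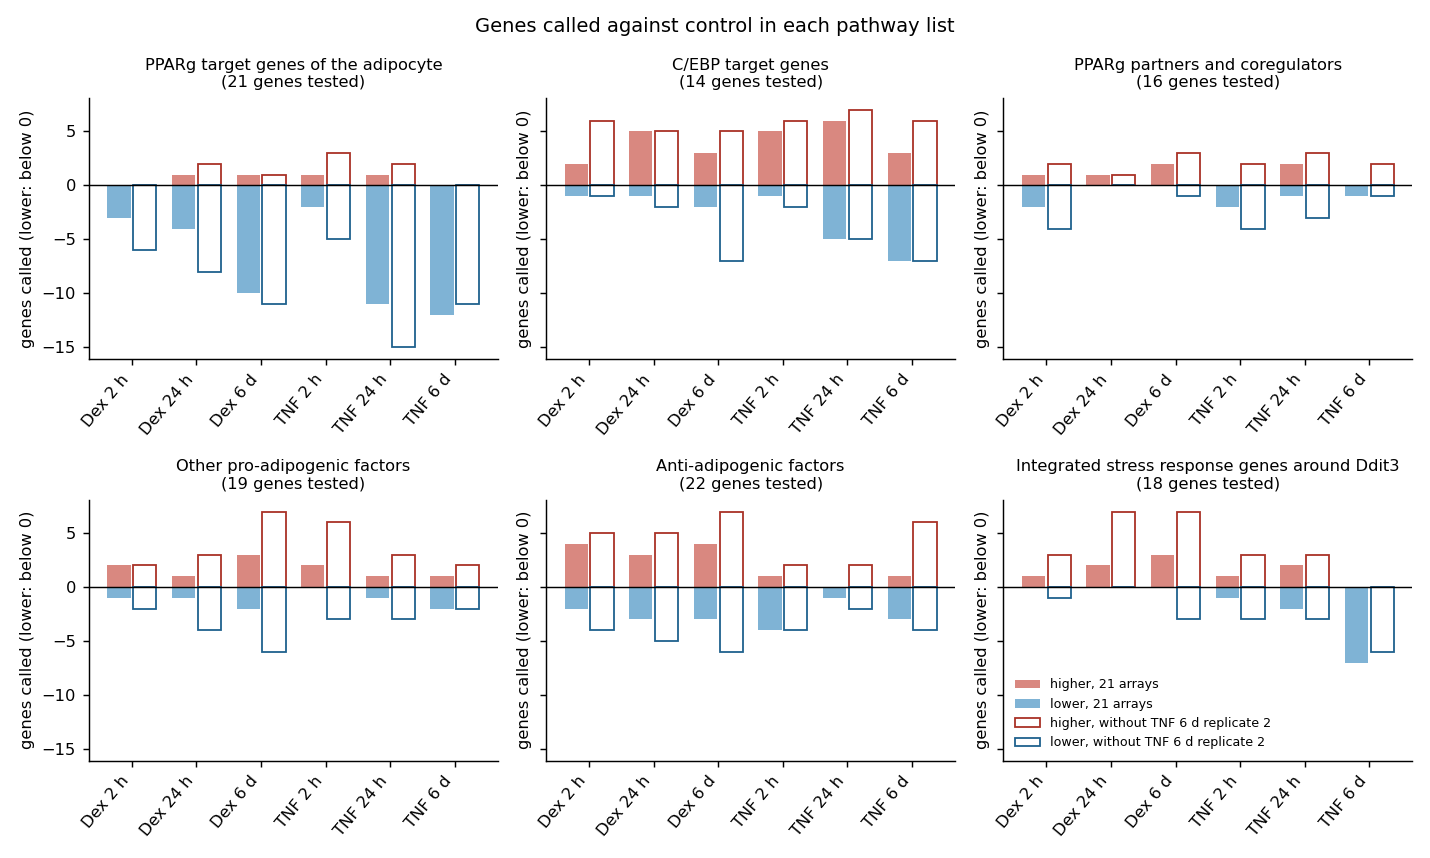
Number of genes called higher (bars upward) and lower (bars downward) in each list of the pathway (panels), for the 6 comparisons with control (x axis), out of the number tested. Filled bars are from all 21 arrays and open bars from the fit without TNF 6 d replicate 2. With all arrays PPARγ targets reach 10 lower at 6 d of Dex, 11 lower at 24 h and 12 lower at 6 d of TNF, of 21 tested.

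The list of other pro-adipogenic factors had 19 genes tested, though not every one need favour fat cell formation. Of these, 2 were higher and 1 lower at 2 h of Dex, 1 and 1 at 24 h and 3 and 2 at 6 d. Under TNF the counts were 2 and 0, 1 and 1, and 1 and 2. Without the outlying array they were 2 and 2, 3 and 4, and 7 and 6 under Dex, and 6 and 3, 3 and 3, and 2 and 2 under TNF. Zbtb16, a zinc finger factor and glucocorticoid target, rose by 2.17, 2.26 and 2.63 ± 0.27 at the 3 times of Dex (adjusted p = 4.32e-05, 2.73e-05 and 2.22e-06). Klf9, a further glucocorticoid target that acts on Pparg in adipogenesis, rose by 1.06 ± 0.28 at 6 d of Dex (adjusted p = 0.021). Bhlhe40, a basic helix-loop-helix repressor that need not favour fat cell formation, fell by 2.22 ± 0.43 at 2 h and fell by 1.77 ± 0.43 at 6 d of Dex (adjusted p = 0.00541 and 0.0136). Ebf2, a factor of adipocyte precursors, fell by 1.06 ± 0.20 at 24 h of Dex (adjusted p = 0.00331) and fell by 0.81 ± 0.20 at 24 h of TNF (adjusted p = 0.0143). Klf5, which acts downstream of C/EBPβ and C/EBPδ, rose at 2 h by 0.99 ± 0.20 under Dex and 1.49 ± 0.20 under TNF (adjusted p = 0.00823 and 8.41e-05), from a control mean of 4.97, below 5.34.

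The list of anti-adipogenic factors had 22 genes tested, though not every one need hold adipogenesis back. Of these, 4 were higher and 2 lower at 2 h of Dex, 3 and 3 at 24 h, and 4 and 3 at 6 d. Under TNF the counts were 1 and 4, 0 and 1, and 1 and 3. They became, without the outlying array, 5 and 4, 5 and 5, and 7 and 6 under Dex, and 2 and 4, 2 and 2, and 6 and 4 under TNF. Hes1, a Notch target, was called lower in all 6 comparisons, with changes of -1.54 ± 0.22 at 2 h of Dex (adjusted p = 0.000232), -1.47 ± 0.22 at 2 h of TNF (adjusted p = 0.000229) and -1.85 ± 0.22 at 24 h of TNF (adjusted p = 9.71e-06). Snai2, a repressor of epithelial genes that need not hold adipogenesis back, changed in opposite directions between times. It rose by 1.60 ± 0.17 at 2 h of Dex (adjusted p = 7.06e-06) and fell by 1.32 ± 0.17 at 6 d of Dex (adjusted p = 3.58e-05). Under TNF it fell by 0.81 ± 0.17 at 2 h (adjusted p = 0.00699) and rose by 1.15 ± 0.17 at 6 d (adjusted p = 0.000293). Foxo1, the insulin-controlled forkhead factor, rose by 0.96 ± 0.18 at 2 h of Dex (adjusted p = 0.00281) and fell by 1.09 ± 0.18 at 2 h of TNF (adjusted p = 0.000485).

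Of 18 genes of the integrated stress response around Ddit3, 1 was higher and 0 lower at 2 h of Dex, 2 and 0 at 24 h, and 3 and 0 at 6 d. Under TNF the counts were 1 and 1, 2 and 2, and 0 and 7. The fit without the outlying array gave 3 and 1, 7 and 0, and 7 and 3 under Dex, and 3 and 3, 3 and 3, and 0 and 6 under TNF. Chac1, a glutathione-degrading enzyme and CHOP target, rose by 0.99 ± 0.23 at 2 h of Dex (adjusted p = 0.0193) and fell by 0.86 ± 0.23 at 2 h of TNF (adjusted p = 0.0367). Atf3, a factor induced by stress, rose by 1.32 ± 0.16 at 2 h of TNF (adjusted p = 1.47e-05) and 1.24 ± 0.16 at 6 d of Dex (adjusted p = 2.35e-05), from a control mean of 5.16, below 5.34. Asns, asparagine synthetase, rose by 0.62 ± 0.18 at 6 d of Dex (adjusted p = 0.0361). At 6 d of TNF the mTOR inhibitor Ddit4 fell by 2.85 ± 0.43 (adjusted p = 0.000322), or by 2.06 without the outlying array (adjusted p = 8.05e-07). Psat1, an enzyme of serine synthesis, fell by 1.34 ± 0.35 at 24 h (adjusted p = 0.0174) and fell by 1.56 ± 0.35 at 6 d of TNF (adjusted p = 0.00594). Without the outlying array the Psat1 change at 6 d of TNF was -0.95 (adjusted p = 0.00115).

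Across the 7 group means, Cebpa and Cebpg moved most alike among the 6 genes (Pearson r = 0.852), and Cebpd and Ddit3 were the most opposed (r = -0.657), as a description with no test. Among 3693 tested genes whose group means span at least 1 on the log2 scale, the closest to Pparg were Mrnip (r = 0.967), Nudt7 (0.960) and Pdxp (0.958). Those closest to Cebpa were Parp16 (0.965), Hexim1 (0.941) and Dusp4 (0.937). Cebpb was matched by Cyld (0.973), Cyth3 (0.972) and Jcad (0.963). For Cebpd they were Pdp1 (0.981), Ppip5k2 (0.979) and Errfi1 (0.977). Cebpg had Qsox1 (0.971), Slc16a4 (0.963) and Zan (0.961), and Ddit3 had Sema4b (0.973), Bhlhe40 (0.959) and Vamp1 (0.927). With 7 points and so many candidates, such values are reached by many genes, and all points share their arrays. Without the outlying array r was lowest for Jcad with Cebpb, at 0.772.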

How the data were processed

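The deposited values are log2 expression per probe set, normalised by the authors with robust multi-array averaging (RMA) per the submitters' processing notes. The log2 scale was read from their range up to 15.06, and the software version is not given in the sources used here. They were used as deposited. Of 45101 probe sets, 34958 list 1 gene, 932 several and 9211 none, and only the first were used. Symbols of 34754 were updated through the Entrez identifier and 204 kept. A gene is its probe set with the highest mean over 21 arrays. Of 18194 genes, 12156 with at least 3 arrays above 5.34 were tested.

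One model with a mean per group was fitted in R 4.3.3 with limma 3.58.1 (tables read with data.table, version 1.17.8). The residual degrees of freedom were 14, or 13 without TNF 6 d replicate 2, with trended empirical Bayes moderation. It gave 15 two-sided comparisons: 6 with control, 3 between agents and 6 between times. The calling was tested on simulated data that held no outlying array, so that test does not cover the effect of TNF 6 d replicate 2. An exact permutation of 3 against 3 arrays cannot give a p below 0.1. No pair of arrays was a duplicate (0 pairs). The members, lists and settings were chosen with earlier results of these data known. Named genes are the 6 members, up to 3 called genes each way per list and comparison with the largest change, and for each member the 3 genes with the most similar group means. Marker genes may be named too, and the text gives a selection of the list genes so named.

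Whether equal replicate numbers pair arrays was judged from how their deviations from group means correlate over genes. Every pair was above 0.1 in 2 of the 15 comparisons, those of Dex 24 h with the control (0.233 to 0.447) and with TNF 24 h (0.207 to 0.270). Other settings were no filter, a stricter filter (60th percentile, 6.10), the mean of probe sets, cyclic loess, no trend, robust moderation, a replicate block, only the 2 groups compared, and each array left out. Chosen after seeing the data were the fits of 2 groups with a replicate block and of 2 groups without TNF 6 d replicate 2.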

Additional observations from a re-analysis of the deposited data

Results flagged for a closer look

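Differences between the agents, or between times of 1 agent, that were tested as such and called with all 21 arrays are listed here as log2 differences. Between Dex and TNF, Cebpd was higher under Dex by 3.32 at 2 h, 1.49 at 24 h and 3.24 at 6 d. Pparg was higher under Dex by 1.21 at 2 h and 1.18 at 6 d. Cebpa was higher under Dex by 0.87 at 24 h and 0.86 at 6 d, and Cebpg by 0.90 at 24 h and 0.62 at 6 d. For Ddit3 the difference at 2 h was -0.96, lower under Dex.

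Between times, Cebpa at Dex was higher by 1.19 at 24 h and by 1.04 at 6 d than at 2 h. For Cebpb the difference between 6 d and 2 h was -0.63 under Dex and -0.68 under TNF. Groups of 3 arrays are too small for a test of single outlying values.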

How the results depend on the processing

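Of the 24 changes called with all 21 arrays, 5 kept their call in every setting run: Cebpd against control at the 3 times of Dex, Cebpd between the agents at 2 h, and Cebpg between the agents at 24 h. Among changes called in the main fit or in the setting compared, the sign turned for 1, Cebpd at 6 d of TNF. It went from -0.29 to 0.65 without TNF 6 d replicate 2. That held in the model of all groups and in that of only the 2 groups compared (0.65). Over all arrays left out in turn this Cebpd change ranged from -0.77 (without TNF 6 d replicate 3) to 0.65. Sign turns of changes called in neither fit numbered 43 over all settings. An example was Cebpa at TNF 6 d against TNF 24 h, -0.14 with all arrays and 0.12 without TNF 6 d replicate 2. Counts of the 6 genes called moved by over 1.5 times as follows, with the count from all 21 arrays in brackets. With cyclic loess they were 2 at Dex 6 d (1), 2 at TNF 24 h (1) and 1 at TNF 6 d (2) against control, 5 for Dex against TNF at 24 h (3), 3 for Dex 24 h against 2 h (1), 4 for Dex 6 d against 2 h (2), and 1, 1 and 0 for TNF 24 h against 2 h (0), 6 d against 24 h (0) and 6 d against 2 h (1). With the mean of all probe sets they were 2 at TNF 24 h and 3 for Dex 24 h against 2 h. With only the 2 groups compared they were 2 at Dex 6 d, 3 at TNF 24 h and 0 at TNF 6 d against control, 0 for Dex against TNF at 6 d (4), 6 for Dex 24 h against 2 h, 4 for Dex 6 d against 2 h, 1 for TNF 24 h against 2 h and 0 for TNF 6 d against 2 h. Without TNF 6 d replicate 2 the last was 2. With a replicate block in the 2 groups compared they were 3 at Dex 24 h (1), 2 at Dex 6 d, 4 at TNF 24 h and 0 at TNF 6 d against control, 0 for Dex against TNF at 6 d, 6 and 4 for Dex 24 h and 6 d against 2 h, and 1 and 0 for TNF 24 h and 6 d against 2 h. The stricter filter gave 1 for TNF 6 d against 24 h (0). The cause was not tested.

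Leaving out each array in turn gave 1 to 4 genes at Dex 2 h, 1 at Dex 24 h, 1 to 2 at Dex 6 d, 0 to 4 at TNF 2 h, 0 to 4 at TNF 24 h and 1 to 4 at TNF 6 d. Between the agents it gave 2 to 3, 1 to 5 and 1 to 4 at the 3 times. Between times it gave 0 to 5, 0 and 0 to 4 for Dex (24 h against 2 h, 6 d against 24 h, 6 d against 2 h) and 0 to 1, 0 to 4 and 1 to 3 for TNF.

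In the model of all groups the replicate block changed 2 of 90 calls of single genes, Ddit3 at Dex 2 h (-0.86, adjusted p = 0.0582) and Pparg at Dex 2 h against TNF 2 h (1.21, adjusted p = 0.0509). Where the numbers paired the arrays, this block over all groups left the counts at 1 (Dex 24 h against control) and 3 (Dex against TNF at 24 h). In models of only the 2 groups compared, adding the block moved the first from 1 to 3, with 1860 and 2897 of all genes called. The second stayed at 4 there, with 3368 and 3571 of all genes called. So the block did matter for Dex 24 h against control in that model. All 6 probe sets used were above 5.34 on every array, so dim signal is a limit mainly for the second Cebpd probe set. The rest are limited by 3 arrays a group and by TNF 6 d replicate 2, which widened the shared spread.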
